A study of Caenorhabditis elegans with 12 samples.

Results

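The cytochrome P450 genes of Caenorhabditis elegans were followed in starved, arrested first-stage (L1) larvae whose parents had fed on RNAi bacteria. Members were all genes of the authors' daf-2 RNAi comparison whose symbol has the form of a P450 gene, that is cyp, a family number, a subfamily letter and a gene number. This gave 45 of 12395 listed genes, and all 45 had enough counts to be tested among 14664 genes. The authors' list holds genes they called reliably expressed, and another 32 entries with such names in the count files were not members.

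Parents were raised from embryos for 72 h on bacteria making double-stranded RNA against daf-2, on bacteria making it against pitr-1, or on bacteria with an empty vector. daf-2 encodes the insulin/IGF receptor, and pitr-1 a relative of phosphate transporters. Their embryos were released by bleach, hatched without food and were frozen about 24 h later. Parents and larvae of all 3 groups carried hrde-1(tm1200), a mutation in the nuclear Argonaute that inherited germline silencing needs, so no group had intact hrde-1. Each group held 4 libraries of polyadenylated RNA, called biological replicates 1 to 4. RNA of the parents was not measured.

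Cytochrome P450 enzymes are heme proteins that insert 1 atom of molecular oxygen into a substrate, with electrons that most of them take from NADPH through P450 reductase in the membrane of the endoplasmic reticulum. In worms they act on drugs and other foreign compounds, on polyunsaturated fatty acids, which they turn into eicosanoid signals, and on sterols. Many genes of the cyp-33, cyp-34 and cyp-35 families lie side by side in tandem arrays. Symbols follow the worldwide P450 names, in which families are grouped into clans.

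Of the members, 23 belonged to clan 2 (families 14, 23, 33, 34, 35 and 36), 13 to clan 3 (13, 25 and 43) and 8 to clan 4 (29, 31, 32, 37 and 42), and cyp-44A1 was the 1 mitochondrial P450. In the Ensembl WBcel235 annotation, 25 of the 45 lay on chromosome V and 9 on chromosome II. The longest run of neighbours, 11 P450 genes on chromosome V, held 7 members: cyp-35B1, cyp-34A4, cyp-34A5, cyp-34A6, cyp-34A8, cyp-34A9 and cyp-34A10. A run of 8 cyp-13A genes on chromosome II held 5 members, and a run of 5 cyp-33C genes on chromosome V held 4. That annotation marks cyp-31A1 and cyp-25A5 as pseudogenes.

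Counts assigned to genes were 5907286 to 11490429 per library, of which ribosomal RNA took 15.2% to 44.8%. The family had 1982 to 9464 counts per library. The lowest of these was pitr-1 RNAi replicate 1, which also had the fewest gene counts and 39.8% of its reads unaligned, and in which 19 of the 45 members had their lowest level. Exons of 15 members overlap exons of another gene, on the opposite strand except for cyp-44A1, where it is the same strand. The library kit does not mark strand, so reads of the 2 genes cannot be told apart there in either case. For 5 of these members the other gene codes for a protein, as for cyp-37B1, cyp-37A1 and cyp-36A1. Reads shared by similar paralogs could also be split or lost between them.

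Levels were unequal across the family. The highest were clan 4 genes, and most members were below the median of all genes. Levels are given as CPM, counts per 1000000 of the TMM-adjusted library size (TMM, the scaling that edgeR uses), and between genes only as CPM per kb of exon. The median level was 4.60 CPM per kb over the members and 8.01 over 14473 tested genes with a known length, and 11 members were above that value. The median level was 17.6 CPM per kb over the 8 clan 4 genes, 4.98 over the 23 clan 2 genes and 2.69 over the 13 clan 3 genes.

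The highest level was that of cyp-37B1, at 58.9 ± 7.66 CPM per kb over 12 libraries (SD), followed by cyp-32B1 at 53.99 ± 16.5 CPM per kb, both of clan 4. These neighbours in the order did not differ beyond their spread. cyp-31A1, the pseudogene entry, was next at 35.8 ± 4.72 CPM per kb and cyp-37A1 at 24.2 ± 7.36 CPM per kb. cyp-31A2 and cyp-31A3, genes of the cyp-31A subfamily outside the members, had at most 15 and 26 counts in any library, against 149 to 644 for cyp-31A1. These are raw counts, not scaled to exon length, and reads shared between these genes could be split or lost. The clan 2 genes cyp-34A4, cyp-33C7 and cyp-34A9 stood at 20.9 ± 9.31, 14.2 ± 2.62 and 13.1 ± 4.31 CPM per kb. cyp-44A1, the mitochondrial P450, stood at 6.10 ± 1.03 CPM per kb. At the low end, 9 members averaged under 3 CPM, and 4 of these had a count of 0 in 1 library each: cyp-33C1 and cyp-33C2 in pitr-1 RNAi replicate 1, cyp-34A6 and cyp-13A7 in empty vector replicate 1. A count of 0 allows up to 0.785 CPM in the first of these libraries and 0.548 CPM in the second.

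**Figure D1:**
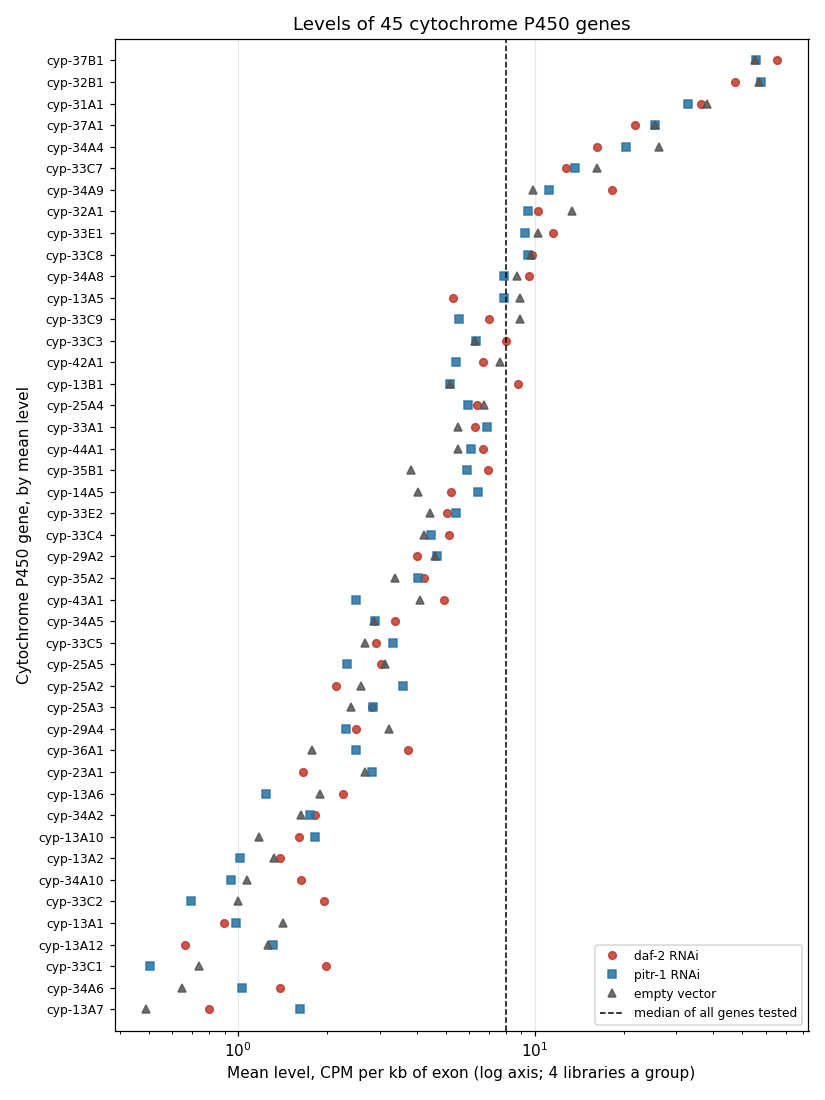
Mean level of each of the 45 genes in CPM per kb of exon (log axis) in daf-2 RNAi (circles), pitr-1 RNAi (squares) and empty vector progeny (triangles), 4 libraries each, ordered by the mean over 12 libraries. The dashed line is the median of all genes tested, 8.01 CPM per kb; 11 members have a mean above it.

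The summed level of the family was 639.6 ± 25.9 CPM in daf-2 RNAi progeny, 609.3 ± 77.4 CPM in pitr-1 RNAi progeny and 635.2 ± 48.7 CPM in empty vector progeny (SD, n = 4 each), so the means differed by less than the spread of the libraries. The clan 4 sum was 317.3 ± 14.4, 315.4 ± 55.5 and 332.4 ± 23.7 CPM in the same order of groups. The clan 2 sum ranged over 229.2 to 257.1 CPM in daf-2 RNAi, 191.3 to 242.2 CPM in pitr-1 RNAi and 201.1 to 254.2 CPM in empty vector libraries, and the groups overlapped in both clans.

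The first comparison asks how progeny differ after daf-2 RNAi of the parents. The clan 2 gene cyp-34A9 stood out in its libraries: its level was about 1.84 times as high in daf-2 RNAi as in empty vector progeny. No member passed the edgeR quasi-likelihood test without a term for replicate number (Benjamini-Hochberg adjusted over all genes, threshold 0.05), and DESeq2 called 0 in this and the other comparisons of groups. Of all genes tested, 0.0273% were called higher and 0.00682% lower there. Same-numbered libraries of different groups deviated together, and when edgeR held the replicate number as a block, 1 member, cyp-34A9, was called higher and 0 lower, against 0.184% and 0.13% of all genes.

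cyp-34A9 had 28.1, 32.3, 28.4 and 35.3 CPM in daf-2 RNAi replicates 1 to 4, against 18.3, 15.5, 11.03 and 22.5 CPM in empty vector replicates 1 to 4. The 2 groups did not overlap, and the daf-2 RNAi library was higher in 4 of 4 pairs of the same number. The log2 fold change was 0.91 ± 0.17 with the block (SE, n = 4; edgeR adjusted p = 0.0396) and 0.88 ± 0.22 without it (edgeR adjusted p = 0.494, and DESeq2 adjusted p = 0.0565). With the block, the call was lost when replicate 2, 3 or 4 was left out (edgeR adjusted p = 0.510, 0.260 and 0.276), while the log2 fold change stayed between 0.76 and 1.01 over the 4 omissions. The annotation places a small nuclear RNA gene on the opposite strand of cyp-34A9. In the authors' deposited table, its log2 fold change was 0.92 and its false discovery rate 0.111, the lowest among the members, none of which was under 0.05 there.

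The clan 2 genes cyp-35B1 and cyp-36A1 were next in p without the block. cyp-35B1, counted among the genes that act downstream of the insulin-regulated transcription factor DAF-16, had 12.3, 7.77, 12.6 and 13.2 CPM in daf-2 RNAi progeny, against 6.94, 5.25, 8.85 and 4.22 CPM in empty vector progeny. It was higher in 4 of 4 pairs, but the groups overlapped, as daf-2 RNAi replicate 2 was below the highest empty vector library. Its log2 fold change was 0.87 ± 0.31 (SE, n = 4) and did not pass (edgeR adjusted p = 0.9999, and 0.358 with the block).

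cyp-36A1, which in adult worms acts in the pathway of the oxygen sensor EGL-9 and the hypoxia factor HIF-1, had 9.36, 5.36, 6.46 and 5.06 CPM in daf-2 RNAi progeny, against 1.10, 3.26, 3.76 and 4.31 CPM in empty vector progeny. The groups did not overlap, and most of the gap came in replicate 1, where the 2 groups held their highest and lowest library. Its log2 fold change was 1.05 ± 0.37 (SE, n = 4; edgeR adjusted p = 0.9999, and 0.453 with the block).

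Without overlap between groups, 3 members were higher in daf-2 RNAi, namely cyp-34A6, cyp-34A9 and cyp-36A1, and 0 lower, beside 1.55% and 1.07% of all genes. cyp-34A6 was low throughout, at 2.38 ± 0.399 CPM in daf-2 RNAi and 1.11 ± 0.824 CPM in empty vector progeny (SD, n = 4). At an unadjusted p under 0.05 without the block, 3 members were higher, cyp-34A9, cyp-35B1 and cyp-36A1, and 0 lower, beside 2.05% and 1.55% of all genes. With the block, 7 were higher, with cyp-13B1, cyp-33C1, cyp-34A6 and cyp-37B1 added, and 2 lower, cyp-23A1 and cyp-34A4, beside 4.22% and 4.01% of all genes. In 4 of 4 pairs, 8 members were higher and 8 lower, beside 8.63% and 7.86% of all genes.

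The members that were lower in 4 of 4 pairs included 3 clan 4 genes. cyp-32B1 stood at 78.1 ± 18.3 CPM in daf-2 RNAi and 93.5 ± 17.5 CPM in empty vector progeny, cyp-37A1 at 34.2 ± 8.54 and 39.9 ± 6.62 CPM, and cyp-32A1 at 17.3 ± 4.22 and 22.6 ± 6.84 CPM (SD, n = 4 each). None of the 3 passed, and the ranges overlapped. cyp-37B1, also of clan 4, was higher in 4 of 4 pairs, at 113.7 ± 8.62 CPM in daf-2 RNAi and 96.1 ± 13.4 CPM in empty vector progeny, and did not pass. Of the 8 clan 4 genes, 1 had a log2 fold change above 0, and of the 23 clan 2 genes, 19 had, beside 50.7% of all genes. In pitr-1 RNAi against empty vector progeny, it was 4 of 8 and 13 of 23, and in daf-2 RNAi against pitr-1 RNAi progeny 5 of 8 and 16 of 23. A difference between clans was not tested.

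cyp-34A4, a neighbour of cyp-34A9 in the run on chromosome V, was at the other side. It had 40.2, 22.2, 29.6 and 17.2 CPM in daf-2 RNAi progeny, against 71.8, 33.1, 47.5 and 23.3 CPM in empty vector progeny. The groups overlapped, but the daf-2 RNAi library was lower in 4 of 4 pairs. Its log2 fold change was −0.64 ± 0.14 with the block (SE, n = 4; edgeR adjusted p = 0.0811) and −0.68 ± 0.36 without it. DESeq2 with the replicate number as a term, a test chosen after seeing the data, called it lower (adjusted p = 0.00461) and cyp-34A9 higher (adjusted p = 0.000546). The share of all genes called in that DESeq2 fit is not given here, so these calls cannot be set beside it. Within the run of neighbours, the other 5 members had log2 fold changes above 0, and the summed level of the cyp-34A subfamily was 87.0 ± 5.44 CPM in daf-2 RNAi and 84.8 ± 22.2 CPM in empty vector progeny (SD, n = 4).

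cyp-23A1, which the authors' table describes as a homolog of human CYP7B1, an enzyme of oxysterol metabolism, had 3.09, 2.40, 2.42 and 3.43 CPM in daf-2 RNAi progeny, against 6.57, 3.53, 3.40 and 4.89 CPM in empty vector progeny. The groups overlapped narrowly, and the log2 fold change of −0.68 ± 0.32 (SE, n = 4) did not pass. The clan 2 gene cyp-33C1 had 1.49, 3.88, 2.72 and 5.67 CPM in daf-2 RNAi progeny, against 2.37, 0.815, 0.606 and 1.32 CPM in empty vector progeny. It was higher in 3 of 4 pairs, with a log2 fold change of 1.47 ± 0.74, and was called only in the edgeR fit with the block and without replicate 1 (adjusted p = 0.0436).

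Members with known physiological roles at low to middle levels did not pass either. cyp-35A2, a gene induced by foreign compounds and linked to fat storage, stood at 6.71 ± 0.874 CPM in daf-2 RNAi and 5.35 ± 0.845 CPM in empty vector progeny. cyp-33E2, which makes eicosanoids that act on pharyngeal pumping, stood at 8.83 ± 0.684 and 7.73 ± 3.19 CPM. cyp-13A12, which acts in the locomotor response to reoxygenation, stood at 1.15 ± 0.254 and 2.18 ± 0.825 CPM, and was lower in 4 of 4 pairs. Named for a small p and not for a known role, cyp-13A5 and cyp-13B1 did not pass either. cyp-13A5 stood at 8.85 ± 3.88 and 14.9 ± 7.36 CPM, and cyp-13B1 at 14.5 ± 3.78 and 8.55 ± 7.39 CPM (SD, n = 4 each).

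**Figure D2:**
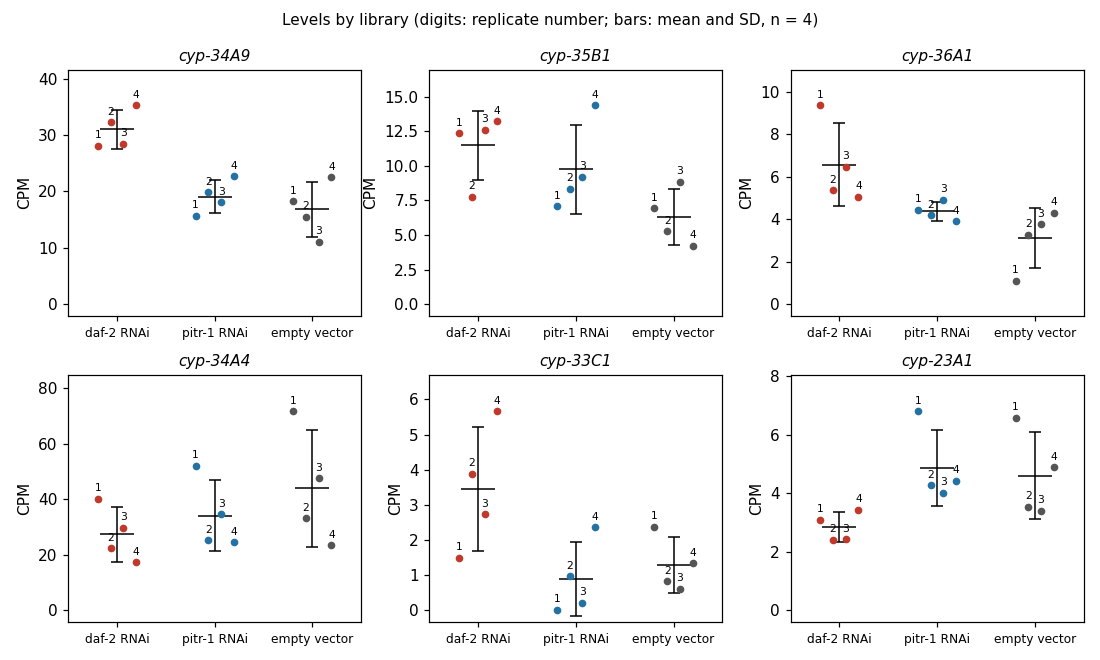
CPM of 6 members in every library of daf-2 RNAi, pitr-1 RNAi and empty vector progeny, with digits for the replicate number and bars for mean and SD (n = 4). cyp-34A9 lies at 28.1 to 35.3 CPM in daf-2 RNAi, above all pitr-1 RNAi and empty vector libraries, while the groups overlap for cyp-35B1 and cyp-34A4.

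Over the whole family, 28 of 45 members had a log2 fold change above 0 in daf-2 RNAi against empty vector progeny, beside 50.7% of all genes. Their median was 0.17, and the median of all genes tested was 0.0048. The family's median was 0.088 without daf-2 RNAi replicate 3, and 0.065 with replicates 2 and 4 only, where 24 of 45 members were above 0, beside 50.9% of all genes. With the block and without replicate 1 it was 0.10, and with the block and without replicate 3 it was 0.075. It was above 0 under each alternative run.

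The second comparison asks the same after pitr-1 RNAi, with the same empty vector libraries as reference, so the comparisons are not independent. No member passed in edgeR, with or without the block, beside 0.00682% of all genes called higher and 0.0% called lower in each of these fits. Groups were separate for 0 members in either direction, beside 0.736% and 0.614% of all genes. At an unadjusted p under 0.05 without the block, 1 member was higher, cyp-13A7, and 1 lower, cyp-33C9, beside 1.16% and 0.566% of all genes. With the block, 2 were higher, cyp-13A7 and cyp-35B1, and 3 lower, cyp-32A1, cyp-33C9 and cyp-34A4, beside 2.03% and 1.62% of all genes. In 4 of 4 pairs, 6 members were higher and 4 lower, beside 6.23% and 6.03% of all genes.

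cyp-13A7, of the cyp-13A run on chromosome II, had 1.31, 2.96, 4.92 and 1.33 CPM in pitr-1 RNAi progeny, against 0, 1.54, 0.728 and 0.911 CPM in empty vector progeny. The groups overlapped, and replicate 3 of pitr-1 RNAi stood highest; the log2 fold change was 1.65 ± 0.66 (SE, n = 4; edgeR adjusted p = 0.99997). The clan 2 gene cyp-33C9 had 7.33, 10.1, 7.28 and 11.3 CPM in pitr-1 RNAi progeny, against 20.5, 12.6, 10.7 and 13.8 CPM in empty vector progeny. It was lower in 4 of 4 pairs with overlapping groups, at a log2 fold change of −0.66 ± 0.30 (SE, n = 4; edgeR adjusted p = 0.99997).

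cyp-34A9 had 15.7, 19.8, 18.1 and 22.7 CPM in pitr-1 RNAi progeny, which overlapped its empty vector values, and its log2 fold change was 0.19 ± 0.22 (SE, n = 4). cyp-35B1 had 7.07, 8.35, 9.23 and 14.4 CPM in pitr-1 RNAi progeny, higher in 4 of 4 pairs, at a log2 fold change of 0.65 ± 0.31. Several others lay lower without passing. cyp-43A1 stood at 4.24 ± 1.87 CPM in pitr-1 RNAi and 6.96 ± 2.09 CPM in empty vector progeny, cyp-32A1 at 16.1 ± 3.06 and 22.6 ± 6.84 CPM, cyp-42A1 at 9.91 ± 2.08 and 13.9 ± 4.41 CPM, and cyp-13A6 at 2.18 ± 0.623 and 3.32 ± 1.09 CPM. cyp-13A10 stood at 3.04 ± 1.23 and 1.98 ± 0.929 CPM (SD, n = 4 each).

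In pitr-1 RNAi against empty vector progeny, 24 of 45 members had a log2 fold change above 0, beside 53.5% of all genes. The family's median log2 fold change was 0.011, against a median of 0.022 over all genes tested. It was −0.035 with the block and −0.062 without empty vector replicate 3, so it had no stable sign. Without pitr-1 RNAi replicate 1, the library of lowest depth, it was 0.063.

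Set directly against each other, daf-2 RNAi and pitr-1 RNAi progeny differed in 0 members in edgeR without the block, beside 0.0% of all genes called higher and 0.0136% lower, and in 0 members with it, beside 0.0818% and 0.0682%. At an unadjusted p under 0.05 without the block, 3 members were higher, cyp-33C1, cyp-34A9 and cyp-43A1, and 1 lower, cyp-23A1, beside 1.12% and 1.11% of all genes. With the block, the same 3 were higher and 2 lower, cyp-23A1 and cyp-34A4, beside 2.38% and 2.35% of all genes. The groups did not overlap for cyp-34A9, cyp-36A1 and cyp-43A1, which were higher in daf-2 RNAi, and for cyp-23A1, which was lower, beside 1.04% and 1.02% of all genes.

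For cyp-34A9 the log2 fold change of daf-2 RNAi against pitr-1 RNAi was 0.70 ± 0.22 (SE, n = 4; edgeR adjusted p = 0.9999), and it was 0.70 ± 0.17 with the block (adjusted p = 0.239). DESeq2 with the replicate number as a term called it (adjusted p = 0.0451), but the share of all genes called in that fit is not given here. cyp-43A1, of clan 3, had 10.4, 7.31, 6.86 and 9.10 CPM in daf-2 RNAi progeny, against 1.83, 5.83, 3.69 and 5.60 CPM in pitr-1 RNAi progeny. Its log2 fold change was 0.94 ± 0.34 (SE, n = 4; edgeR adjusted p = 0.9999). cyp-23A1 had 3.09, 2.40, 2.42 and 3.43 CPM in daf-2 RNAi progeny, against 6.81, 4.26, 4.00 and 4.42 CPM in pitr-1 RNAi progeny, at a log2 fold change of −0.76 ± 0.32. cyp-33C1 had 1.49, 3.88, 2.72 and 5.67 CPM in daf-2 RNAi progeny, against 0, 0.957, 0.205 and 2.36 CPM in pitr-1 RNAi progeny. It was higher in 4 of 4 pairs, and its neighbour cyp-33C2 was too, at 3.09 ± 2.51 CPM in daf-2 RNAi and 1.10 ± 0.844 CPM in pitr-1 RNAi progeny (SD, n = 4). Both had a count of 0 in pitr-1 RNAi replicate 1, which allows up to 0.785 CPM. cyp-33C2 had 0.80 CPM in daf-2 RNAi replicate 1, so its pair 1 lies at the floor. In 4 of 4 pairs, 9 members were higher and 2 lower, beside 8.86% and 8.82% of all genes.

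**Figure D3:**
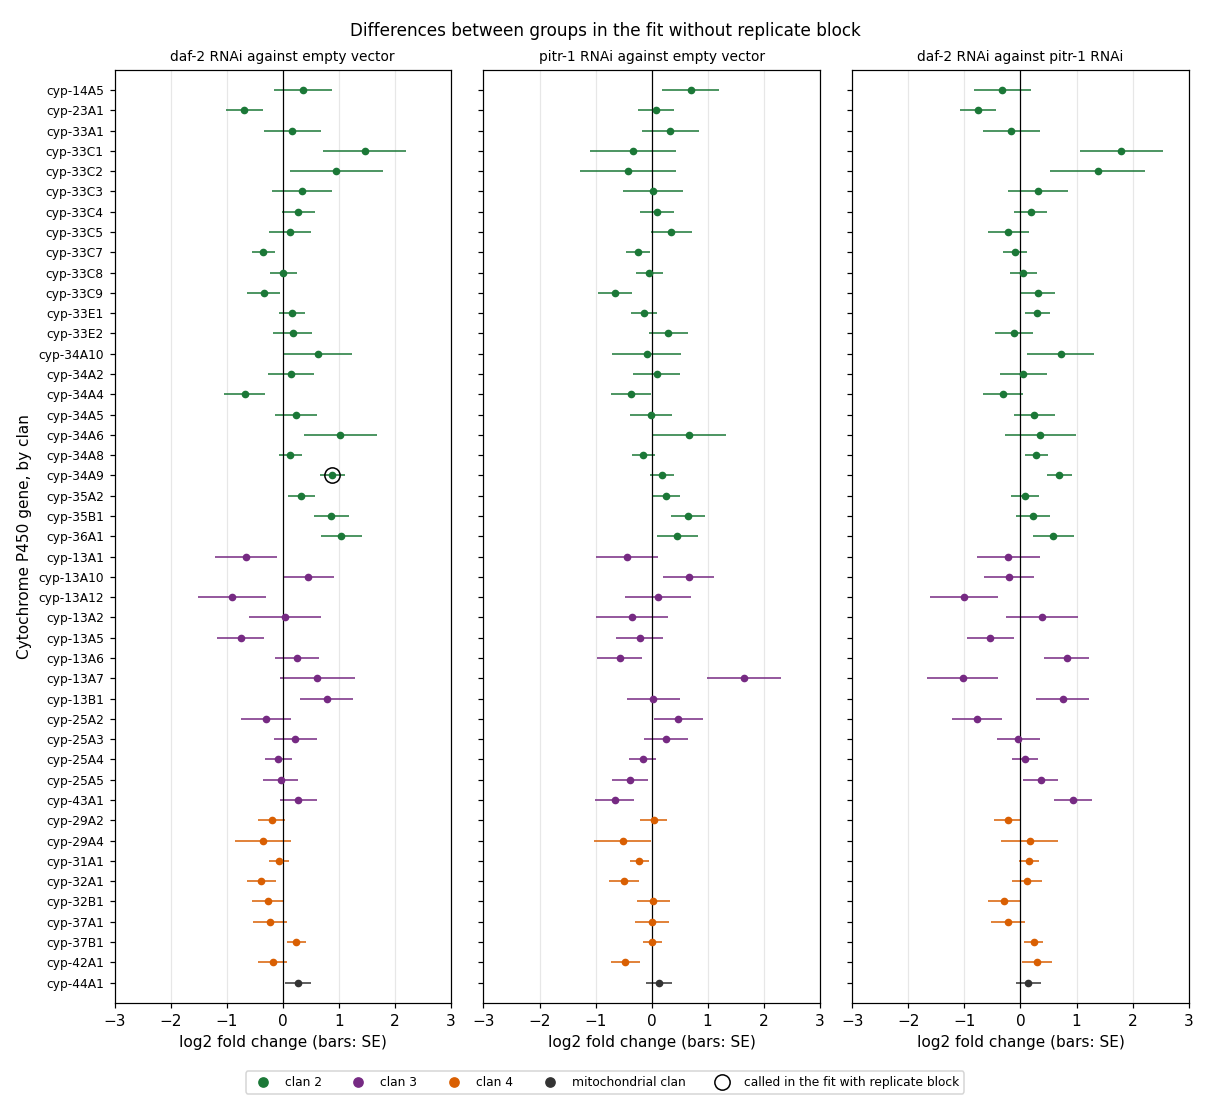
log2 fold change of each of the 45 genes in the 3 comparisons, from the edgeR fit without the block, with bars for SE (n = 4 a group) and colours for clans. A ring marks cyp-34A9 in daf-2 RNAi against empty vector, the 1 member called in the fit with the block.

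More members were called between the replicate numbers than between the RNAi groups. In the edgeR fit of group and replicate number, 7 of 45 members differed between the numbers, a smaller share than the 26.6% of all genes. They were cyp-33C3 and cyp-33A1 of clan 2, cyp-34A4 of clan 2, and the clan 4 genes cyp-32B1, cyp-37A1, cyp-29A4 and cyp-32A1. What the numbers stand for is not given in the sources used here.

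cyp-33C3 had 22.5, 19.6 and 21.3 CPM in replicate 2 of daf-2 RNAi, pitr-1 RNAi and empty vector and 18.8, 15.4 and 12.01 CPM in replicate 4. It had 6.87, 4.71 and 6.03 CPM in replicate 1 and 8.98, 5.44 and 5.46 CPM in replicate 3 (edgeR adjusted p = 0.000444). Every library of replicates 2 and 4 was above every library of replicates 1 and 3. cyp-33C3 was the 1 member with this order, beside 8.1% of all genes, and the other 44 members overlapped. Its neighbours in the run, cyp-33C4, cyp-33C5 and cyp-33C7, did not pass this test.

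cyp-34A4 ran the other way. Its means over the 3 groups were 54.7 CPM in replicate 1, 26.8 in replicate 2, 37.2 in replicate 3 and 21.6 in replicate 4 (edgeR adjusted p = 0.000629). The clan 4 genes cyp-32B1 and cyp-37A1 were highest in replicate 4. cyp-32B1 averaged 66.4, 97.2, 71.2 and 121.0 CPM in replicates 1 to 4 (adjusted p = 0.00998), and cyp-37A1 24.8, 42.6, 34.9 and 49.5 CPM (adjusted p = 0.0200). cyp-29A4 averaged 7.56, 2.48, 3.32 and 4.67 CPM (adjusted p = 0.0257), and cyp-33A1 4.02, 13.1, 10.5 and 11.9 CPM (adjusted p = 0.0372). The clan 4 gene cyp-32A1 was lowest in replicate 4, at 22.04, 21.3, 18.7 and 12.7 CPM in replicates 1 to 4 (adjusted p = 0.0386). cyp-37B1, whose mean was highest in replicate 1, and cyp-31A1, highest in replicate 3, did not pass this test and varied by at most 1.60 and 1.59 times between any 2 libraries.

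**Figure D4:**
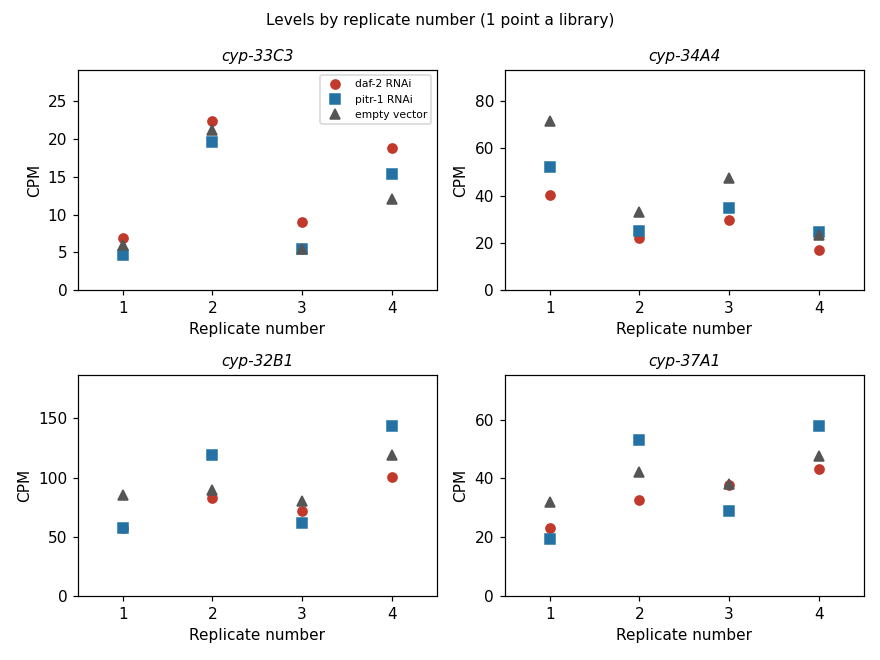
CPM of cyp-33C3, cyp-34A4, cyp-32B1 and cyp-37A1 by replicate number, 1 point a library, with colours and symbols for daf-2 RNAi, pitr-1 RNAi and empty vector. cyp-33C3 stands at 12.01 to 22.5 CPM in replicates 2 and 4 and at 4.71 to 8.98 CPM in replicates 1 and 3, while cyp-34A4 has its highest mean in replicate 1. The daf-2 RNAi point of cyp-32B1 in replicate 1 lies under the pitr-1 RNAi point.

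Genes that work with P450 enzymes did not pass in any comparison. The P450 reductase emb-8 stood at 70.2 ± 8.09 CPM in daf-2 RNAi, 71.7 ± 9.79 CPM in pitr-1 RNAi and 66.2 ± 12.9 CPM in empty vector progeny (SD, n = 4 each). The cytochrome b5 genes cytb-5.1 and cytb-5.2 had log2 fold changes of −0.13 ± 0.24 and −0.20 ± 0.31 in daf-2 RNAi against empty vector progeny. In the steroid hormone pathway, 0 of 7 genes passed in either direction. Among these, daf-9, the P450 that makes dafachronic acid and whose symbol lies outside the family's names, stood at 3.34 ± 1.23 CPM in daf-2 RNAi, 2.75 ± 2.23 CPM in pitr-1 RNAi and 5.88 ± 1.97 CPM in empty vector progeny (SD, n = 4 each). Of 14 regulators reported for P450 genes, 0 passed in either direction, daf-16, hif-1, nhr-8 and the aryl hydrocarbon receptor ahr-1 among them.

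Germline and intestine markers had log2 fold changes mostly of 1 sign, and the part of any marker list in the P450 values was not tested. Germline, maternal and early embryo markers had log2 fold changes above 0 in 12 of 12 genes in daf-2 RNAi and in 12 of 12 in pitr-1 RNAi against empty vector progeny, with medians of 1.21 and 0.95 and 0 genes called. Their summed level was 62.7 to 257.2 CPM in daf-2 RNAi, 60.5 to 259.4 CPM in pitr-1 RNAi and 42.4 to 97.2 CPM in empty vector libraries. A run chosen after seeing the data left out the 3 libraries of highest pos-1, a maternal transcript. These were daf-2 RNAi replicates 2 and 3 and pitr-1 RNAi replicate 3, so daf-2 RNAi kept only replicates 1 and 4. In that run cyp-34A9 had a log2 fold change of 0.91 ± 0.31 (SE) in daf-2 RNAi against empty vector progeny, in edgeR without the block, and was not called. Intestine markers, whose tissue holds many P450 enzymes in worms, had log2 fold changes below 0 in 9 of 10 genes in daf-2 RNAi and in 9 of 10 in pitr-1 RNAi against empty vector progeny, with medians of −0.13 and −0.15. Their summed level was 2551.7 to 5076.4 CPM in daf-2 RNAi, 3024.6 to 3805.3 CPM in pitr-1 RNAi and 4031.8 to 4536.5 CPM in empty vector libraries. The pitr-1 RNAi and empty vector sums did not overlap, but asp-1 alone held the largest part of them. asp-1 stood at 1924.3 ± 222.6 CPM in pitr-1 RNAi and 2409.0 ± 177.6 CPM in empty vector progeny (SD, n = 4 each). cpr-6 did not overlap between these 2 groups either, at 209.8 to 245.0 CPM in pitr-1 RNAi and 249.5 to 307.2 CPM in empty vector libraries. For elt-2, elt-7, ges-1, act-5, ifb-2, vha-6, pept-1 and erm-1 these 2 groups overlapped. In this comparison 0 of 10 intestine markers were called, with or without the block. With the block, 1 intestine marker, the peptide transporter gene pept-1, was called lower in daf-2 RNAi against empty vector progeny, at a log2 fold change of −0.75 ± 0.14 (SE, n = 4; edgeR adjusted p = 0.0394). Marker lists for neurons, body wall muscle, epidermis and adult yolk held 0 called genes. In RNA of whole larvae, fewer cells of a tissue and less RNA per cell cannot be told apart.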

How the data were processed

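Polyadenylated RNA of 12 pools of arrested L1 larvae was sequenced, 4 per group. The authors deposited, for each library, a table of whole-number counts by gene, made with Bowtie 1.2.2 and HTSeq per the submitters' processing notes; edgeR is also named there. Their genome build is not given in the sources used; coordinates and sequences are left out. Ensembl release 115 (WBcel235) gave exon lengths, chromosomes and neighbours, matched by sequence name. Summary entries of the counts (1.71% to 4.60% no feature, 4.59% to 8.45% ambiguous, 16.3% to 39.8% not aligned) stayed out of library sizes. Per the file headers and notes of their workbook, the authors fitted an edgeR generalized linear model with a correction for batch, whose batches are not named there. The authors' deposited table gives log2 fold changes, an F score per gene and p-values with false discovery rates; of these only the log2 fold change and false discovery rate of named members are quoted, as the authors' values, and they enter no test.

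All 14664 genes kept by filterByExpr were fitted together with edgeR 4.0.16 in R 4.3.3 (TMM, robust quasi-likelihood, 1 coefficient per group, two-sided), with Benjamini-Hochberg adjustment over all of them and a threshold of 0.05. SE is the absolute log2 fold change over the square root of F, so it restates the test. Differences between replicate numbers were tested with 3 degrees of freedom in the fit of group and number. Alternatives were median-of-ratios size factors, DESeq2 1.42.0, no filter on low counts, no ribosomal RNA, 8 libraries only, each library left out, and replicates 1 and 3 or 2 and 4 only. Added after seeing the data were DESeq2 with the replicate number as a term and edgeR without the 3 libraries of highest pos-1. Pairing by replicate number was checked by correlating deviations from group means over genes; same-numbered libraries correlated at 0.104 to 0.610, all above 0.1, so a fit with the number as a block is given where it changes a call. The labels do not state such a pairing; it rests on these correlations. The libraries are labelled biological replicates, and p-values measure the spread between them; counting error is a part of it at low counts. On data simulated for daf-2 RNAi against empty vector with 14276 genes, the edgeR test called 22% of genes changed 2-fold and 95% of those changed 4-fold. The changed genes were drawn only from genes above a minimum mean level, which excludes low members, among them the 9 that averaged under 3 CPM. It also excludes cyp-36A1, cyp-25A2, cyp-23A1 and cyp-13A6, which averaged 4.68, 4.35, 4.10 and 3.15 CPM over the 12 libraries. These shares do not cover such members.

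Genes were named by a rule: members called with or without the block, the 8 of smallest p in each comparison, the 8 of highest level, the 6 of smallest p between replicate numbers, and members with a known role. The members, lists and rule were chosen with earlier results of these data known.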

Additional observations from a re-analysis of the deposited data

Results flagged for a closer look

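Of 87 groups of 4 libraries (29 named genes in 3 groups each), 4 held a library far from the other 3; chance alone flags about 1 group in 20. In daf-2 RNAi progeny, cyp-33E2 was lowest in replicate 4, at 7.81 CPM, and cyp-35B1 was lowest in replicate 2, at 7.77 CPM. In pitr-1 RNAi progeny, cyp-23A1 was highest in replicate 1, at 6.81 CPM, and cyp-35A2 was highest in the same library, at 8.11 CPM. That library has the lowest depth of the 12, with 1982 counts over the family, and whether depth has a part in these values was not tested.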

How the results depend on the processing

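The counts of members called in the 3 comparisons of groups were 0 without the block and stayed at 0 under every alternative except those with the replicate number as a term. In daf-2 RNAi against empty vector progeny, the replicate block in edgeR called 1 (cyp-34A9), the block without replicate 1 called 2 (cyp-34A9 and cyp-33C1), and the block in DESeq2, chosen after seeing the data, called 2 (cyp-34A9 and cyp-34A4). The DESeq2 block called 1 (cyp-34A9) in daf-2 RNAi against pitr-1 RNAi progeny. For the DESeq2 block and the edgeR block without replicate 1, the shares of all genes called are not given here. The edgeR block changed no other call of a member. Members that differed between replicate numbers were 7, and 4 to 7 when a number was left out (4 without replicate 2 and 4 without replicate 4); it was 10 without a filter on low counts, within 1.5 times of 7. The log2 fold change of cyp-25A2 in daf-2 RNAi against pitr-1 RNAi progeny was −0.77, and 0.24 with replicates 1 and 3 only; the cause was not tested. At these depths many members have few counts: 28 of 45 averaged under 10 CPM, and simulated 2-fold changes were mostly missed, so a p above the threshold does not show that levels were equal.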

Other observations

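Another 32 entries of the count files carry P450 names of the same form and were not members. The highest of them had 217 counts over the 12 libraries together. They include most genes of the cyp-35A subfamily, cyp-35A1, cyp-35A3, cyp-35A4 and cyp-35A5, which are known as inducible by foreign compounds, and cyp-35C1, cyp-14A1, cyp-14A2, cyp-14A3 and cyp-14A4. cyp-35A2 was the 1 cyp-35A gene among the members, with 709 counts over the 12 libraries. In the run of 11 P450 genes on chromosome V, cyp-35A5, cyp-35B2, cyp-35B3 and cyp-34A7 belonged to these 32 entries, between or beside members with 230 to 3724 counts over the 12 libraries.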
